A study of Mus musculus with 12 samples.

Results

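The genes described here are 38 genes of mitosis and the spindle checkpoint, picked by symbol out of 55573 genes measured in PB3, a mouse breast cancer cell line labelled as lacking estrogen receptor, progesterone receptor and HER2. They cover the mitotic cyclins with CDK1, the spindle checkpoint, mitotic kinases, the chromosomal passenger complex, kinetochore proteins, kinesins, spindle assembly factors, separase with its inhibitor, and 2 chromosome proteins. Polyadenylated RNA was sequenced from 12 libraries in 4 groups of 3. ERI-R was a derivative made resistant to eribulin, PAC-R to paclitaxel and VIN-R to vinorelbine, each with the drug at 300, 500 and 800 nM. Control was the untreated parental line. Whether the drugs were present when RNA was taken, and how many clones each derivative holds, is not given in the sources used here. All groups were grown in the same medium, and no group carried a labelled genetic change. All 38 genes had enough counts to be tested, among 14226 genes in all.

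Cells enter mitosis when CDK1 bound to cyclin B is activated. The spindle checkpoint, formed by the MAD and BUB proteins and the kinase TTK (MPS1), holds the anaphase-promoting complex and its activator CDC20 in check until every chromosome is attached to microtubules. Paclitaxel stabilises microtubules, whereas eribulin and vinorelbine block their growth, and all of them can hold dividing cells at this checkpoint. The mRNAs of most of these proteins are made mainly in late S phase, G2 and mitosis, so in bulk RNA fewer dividing cells and less RNA per dividing cell cannot be told apart.

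Library totals of expected counts ran from 11141028 to 13454395, and 3 counts corresponded to 0.217 to 0.316 CPM (counts after TMM scaling of the library sizes). The libraries fell into 8 with macrophage RNA, in which Lyz2, the lysozyme of macrophages, reached 182 to 1401 CPM, and 4 without it, ERI-R 3, PAC-R 3, VIN-R 3 and Control 1, in which Lyz2 was at 0. The 13 macrophage and leukocyte markers summed to 691 to 4633 CPM in the libraries with Lyz2, and none was at 0. In the libraries without Lyz2 they summed to 18.4 to 167 CPM, with 9 or 10 markers at 0. Most of that lower sum was Cd14 alone. It had 163 CPM in ERI-R 3, 38.5 CPM in PAC-R 3, 30.1 CPM in VIN-R 3 and 17.3 CPM in Control 1. Markers of T cells (Cd3e), endothelium (Cldn5) and erythroid cells (Hbb-bs) were at 0 in every library. The other endothelial marker, Pecam1, reached 0.149 to 10.2 CPM, and of the stromal markers Lum reached at most 0.288 CPM, Dcn at most 2.56 CPM and Pdgfra 10.5 to 59.0 CPM. The part of these cell types in the results was not tested. Epithelial markers set ERI-R apart. Epcam lay between 228 and 244 CPM in ERI-R, against 0.224 to 10.2 CPM in the other 9 libraries, and Cdh1, which encodes E-cadherin, between 94.4 and 320.4 CPM in ERI-R, against 0.920 to 12.9 CPM. The keratin Krt8 lay between 177 and 918 CPM in ERI-R, against 525 to 2449 CPM in the others, and Krt18 between 123 and 879 CPM in ERI-R, against 742 to 2406 CPM, with ERI-R 1 and ERI-R 2 the lowest of all for both keratins. Esr1 lay between 5.05 and 14.3 CPM, Pgr between 0 and 8.61 CPM and Erbb2, which encodes HER2, between 16.8 and 52.8 CPM. ERI-R 3 stood apart, with 15.3% of its counts on ribosomal protein genes, against 3.55% to 8.18% in the other libraries. It held the highest or the lowest CPM of 22 of the 38 mitosis genes.

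The summed level of the 38 mitosis genes was 6162, 5640 and 5458 CPM in ERI-R, 4384, 4727 and 4734 CPM in PAC-R, 4811, 4254 and 5390 CPM in VIN-R and 5842, 5013 and 4611 CPM in Control. For single genes the ratio of the highest to the lowest of the 12 libraries had a median of 2.68, was under 2 for 10 genes and over 5 for 9. The steadiest was the midzone kinesin Kif23, at 103 to 146 CPM, and the widest spread was that of the checkpoint gene Mad1l1, at 19.7 to 245 CPM.

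**Figure D1:**
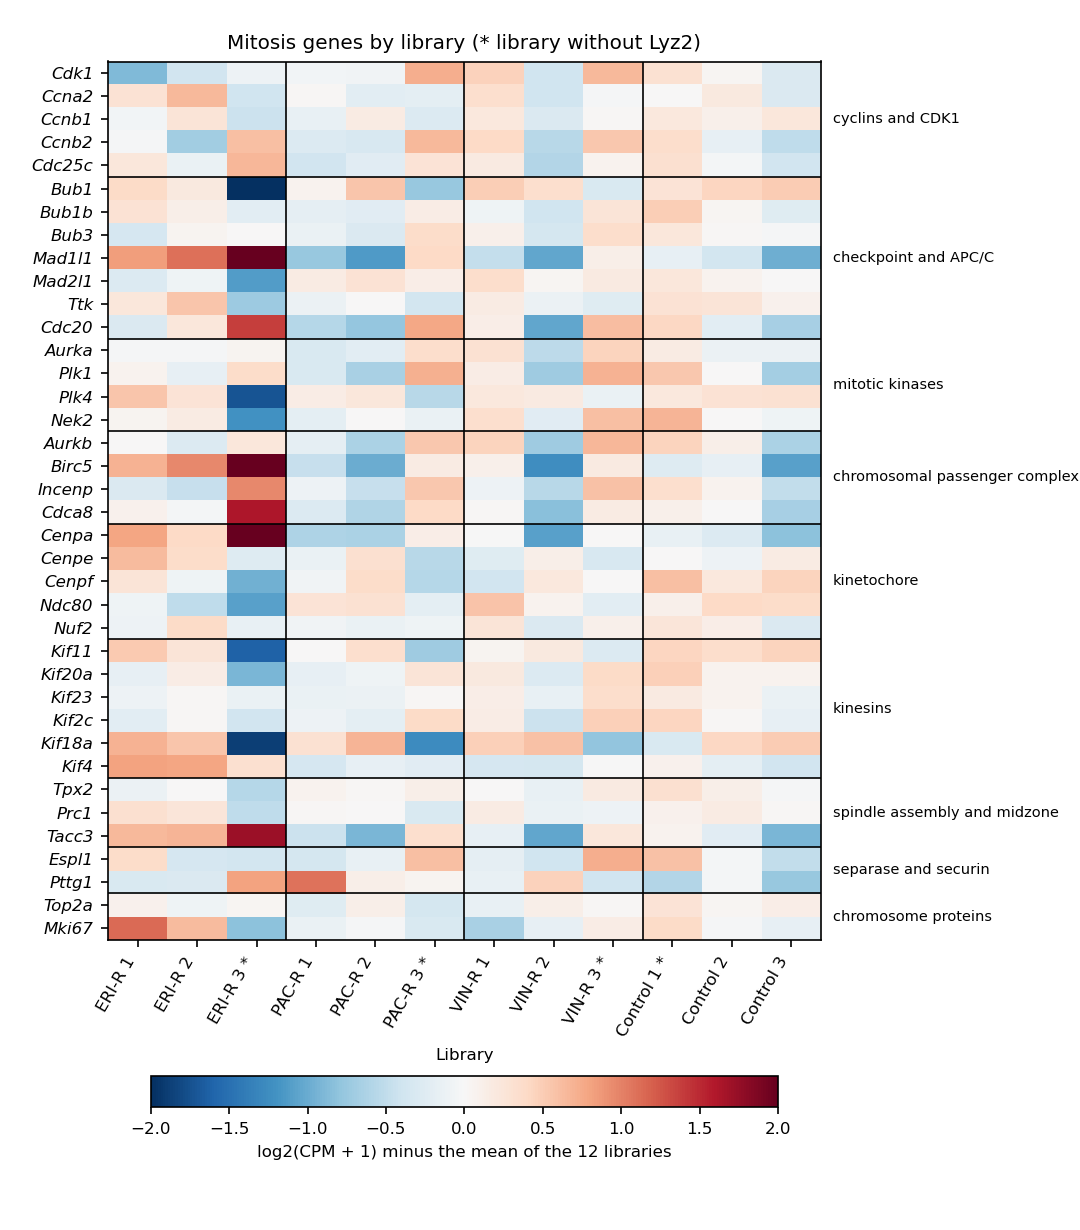
Level of each of the 38 mitosis genes (rows, by role) in each of the 12 libraries (columns, with an asterisk for a library without Lyz2), as log2 of CPM plus 1 minus the gene's mean over all libraries, with colours cut at 2 on either side. Mad1l1, Birc5, Cenpa, Kif4 and Tacc3 are red in all 3 ERI-R libraries, and ERI-R 3 holds the deepest colours of both kinds.

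Compared per unit of transcript length, in the deposited TPM, an abundance normalised to transcript length and library, the order of the genes differed at its head. In ERI-R the highest means were those of Birc5, at 393 ± 46.1 TPM, and Cenpa, at 348 ± 129.6 TPM (SD, n = 3), which did not differ beyond their spread. In Control, Top2a at 343 ± 28.0 TPM and Cdk1 at 339 ± 44.2 TPM came first and did not differ beyond their spread either. In PAC-R the highest means were those of Cdk1, at 338 ± 34.3 TPM, and Top2a, at 274 ± 28.1 TPM, whose libraries did not overlap. In VIN-R they were those of Cdk1, at 364 ± 95.9 TPM, and Top2a, at 304 ± 34.1 TPM, which did not differ beyond their spread. The lowest mean in every group was that of Kif18a, at 18.4 ± 14.9 TPM in ERI-R, 14.7 ± 9.60 TPM in PAC-R, 15.1 ± 6.52 TPM in VIN-R and 17.2 ± 4.07 TPM in Control, and in each group the next lowest gene lay within 1 SD of it.

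Of the 38 mitosis genes, a few rose in ERI-R against Control. They were Mad1l1, Birc5, Cenpa and Kif4, that is 4 of 38 (10.5%), and 0 of 38 fell, at an adjusted p under 0.05 in edgeR's quasi-likelihood test with Benjamini-Hochberg adjustment over all genes tested. By the same rule 19.2% of all 14226 genes were called, 9.51% as higher and 9.69% as lower. The share of mitosis genes called in either direction was below the background, and the share called as higher was near it. The median log2 fold change of the 38 genes was -0.04, beside -0.00 for all genes. The median absolute log2 fold change was 0.30, beside 0.66 for all genes. The median log2 fold change depended on the libraries used. It was 0.24 among the libraries with Lyz2, beside 0.01 for all genes, and 0.13 without ERI-R 3, beside 0.10. Libraries of ERI-R and Control did not overlap for 7 of the 38 genes, 5 higher and 2 lower in ERI-R (18.4%), against 35.7% of all genes.

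Mad1l1 encodes MAD1, which recruits MAD2 to unattached kinetochores and so starts the checkpoint signal. It had 79.5, 96.1 and 245 CPM in the ERI-R libraries, against 39.6, 34.0 and 22.0 CPM in the Control libraries. All ERI-R libraries lay above all Control libraries, and in CPM ERI-R 3 was far above its own replicates. On the TPM scale the groups did not overlap either, with 63.9, 69.5 and 94.7 TPM in ERI-R, against 33.0, 23.2 and 25.2 TPM in Control. The mean was 140.3 ± 91.3 CPM in ERI-R, against 31.9 ± 8.97 CPM in Control (SD over 3 libraries), a log2 fold change of 2.14 with a 95% interval of 0.90 to 3.38 (edgeR adjusted p = 0.0211). The gene lies on chromosome 5 at 140008689 to 140321552, on the reverse strand of GRCm38.

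Birc5 encodes survivin, the subunit that brings the chromosomal passenger complex to centromeres and that also belongs to the family of apoptosis inhibitors. It reached 158, 189.9 and 430.2 CPM in ERI-R, against 80.6, 86.2 and 44.9 CPM in Control, again without overlap. Nor did the groups overlap on the TPM scale, with 347, 394 and 439 TPM in ERI-R, against 165, 155 and 88.2 TPM in Control. Means of 259 ± 149 CPM in ERI-R, against 70.6 ± 22.4 CPM in Control, gave a log2 fold change of 1.88 with a 95% interval of 0.71 to 3.04 (edgeR adjusted p = 0.0292). It lies on chromosome 11 at 117849251 to 117855743, on the forward strand.

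Cenpa encodes the histone H3 variant that marks the centromere and on which the kinetochore is built. Its level was 202, 155 and 565 CPM in ERI-R, against 105, 96.2 and 65.9 CPM in Control. The lowest ERI-R library was above the highest Control library. The same held of TPM, with 314, 238 and 491 TPM in ERI-R, against 189, 117 and 84.2 TPM in Control. With means of 307 ± 225 CPM in ERI-R, against 89.0 ± 20.4 CPM in Control, the log2 fold change was 1.79 with a 95% interval of 0.65 to 2.93 (edgeR adjusted p = 0.0328). The gene lies on chromosome 5 at 30666777 to 30674830, on the forward strand.

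Kif4 encodes the chromosome-bound kinesin that acts in chromosome condensation and at the spindle midzone. It had 128, 126 and 90.6 CPM in ERI-R, against 77.5, 63.6 and 55.5 CPM in Control. Unlike the other called genes it was lowest in ERI-R 3 among the ERI-R libraries. The means were 115 ± 21.2 CPM in ERI-R, against 65.5 ± 11.1 CPM in Control, which gave a log2 fold change of 0.81 with a 95% interval of 0.28 to 1.34 (edgeR adjusted p = 0.0368). On the TPM scale the groups overlapped, with 59.8, 53.7 and 15.3 TPM in ERI-R, against 29.8, 24.8 and 19.9 TPM in Control. Kif4 lies on the X chromosome at 100625737 to 100727214, on the forward strand, and some of its exons are overlapped by Pdzd11 on the opposite strand, which had a mean of 423 expected counts per library beside 927 for Kif4. Since the sources used here do not say whether counting used strand, the value of Kif4 is uncertain to that extent.

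**Figure D2:**
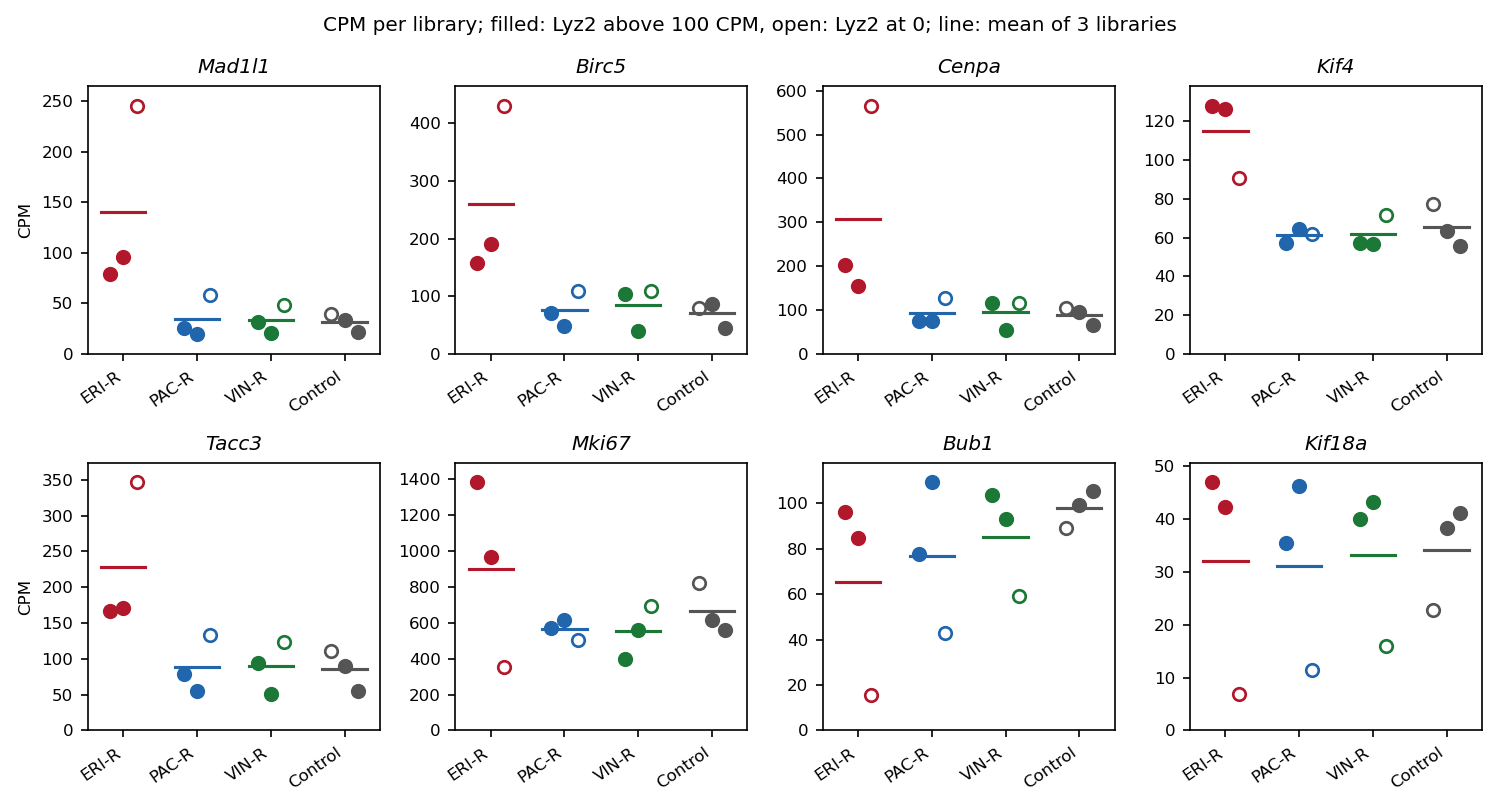
CPM of 8 mitosis genes in each library (points), by group, with the mean of the 3 libraries of a group as a line; filled points are libraries with Lyz2 and open points libraries without it. Mad1l1, Birc5, Cenpa and Tacc3 are highest in ERI-R 3, whereas Mki67, Bub1 and Kif18a are lowest there.

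These calls rested on few libraries. Without 1 Control library 12.6% to 13.6% of all genes were called, beside 19.2% in the full fit. Without 1 ERI-R library it was 16.1% to 19.7%, and with the 2 groups alone 12.8%. The Mad1l1 call was lost when Control 2 (log2 fold change 2.17, edgeR adjusted p = 0.0689) or Control 3 (1.91, adjusted p = 0.0915) was left out. Birc5 missed the threshold when ERI-R 3 (log2 fold change 1.44), Control 1 (2.05), Control 2 (2.03) or Control 3 (1.62) was left out. For Cenpa the same held of ERI-R 3 (1.14), Control 1 (1.97), Control 2 (1.83) and Control 3 (1.59). Kif4 missed it when ERI-R 1 (0.75), ERI-R 2 (0.78), Control 1 (1.04), Control 2 (0.78) or Control 3 (0.69) was left out. Kif4 also missed it without a filter on low counts (0.81, edgeR adjusted p = 0.180) and with total counts alone (0.91, adjusted p = 0.0678). When the ERI-R and Control libraries were fitted alone, Birc5 (1.88), Cenpa (1.79) and Kif4 (0.81) missed it too. In each of these refits the gene named stayed higher in ERI-R.

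Markers of macrophages differed between the libraries within each group, so the comparison was repeated among the 8 libraries with Lyz2, where 22.7% of 14388 genes were called. There Mad1l1 (log2 fold change 1.75, edgeR adjusted p = 0.00559) and Kif4 (1.19, adjusted p = 0.0050) were called, while Birc5 (1.51, adjusted p = 0.0706) and Cenpa (1.24, adjusted p = 0.0523) were not. Tacc3 (1.32, edgeR adjusted p = 0.0340) and Mki67 (1.10, adjusted p = 0.0236) were called in that subset, so that 4 genes passed. With a term for Lyz2 in the fit of all 12 libraries, where 31.2% of genes were called, Mad1l1 (1.97), Birc5 (1.75), Cenpa (1.61), Kif4 (0.82) and Tacc3 (1.35) were called as higher and Ndc80 (-0.86, edgeR adjusted p = 0.0113) as lower. What part macrophage RNA had in the differences was not tested.

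The promoters of the 4 called genes are shown with those of Ccnb2 and Cdc20, mitosis genes that were not called in any comparison. The first pair differs in its motifs from the other 4 shown, but not from all uncalled genes, as given below. Many genes of G2 and mitosis are known to carry CCAAT boxes, bound by NF-Y, and a cell cycle homology region (CHR), bound by complexes that hold the MuvB core. The windows are from RefSeq on GRCm38.p6 and run from 250 bases before to 50 bases after a RefSeq start, 5′ to 3′ along the gene, with matches to CCAAT or TTTGAA on either strand in capitals. No match of one motif overlapped one of the other in these 6 windows.
Mad1l1 (chr5:140321503-140321802, reverse strand): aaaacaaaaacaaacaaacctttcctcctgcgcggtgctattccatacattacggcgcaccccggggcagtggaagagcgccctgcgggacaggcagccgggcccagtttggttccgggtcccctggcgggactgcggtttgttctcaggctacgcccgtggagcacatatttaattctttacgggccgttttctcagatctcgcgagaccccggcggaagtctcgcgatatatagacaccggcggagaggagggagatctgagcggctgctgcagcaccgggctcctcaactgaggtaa
Birc5 (chr11:117848987-117849286, forward strand): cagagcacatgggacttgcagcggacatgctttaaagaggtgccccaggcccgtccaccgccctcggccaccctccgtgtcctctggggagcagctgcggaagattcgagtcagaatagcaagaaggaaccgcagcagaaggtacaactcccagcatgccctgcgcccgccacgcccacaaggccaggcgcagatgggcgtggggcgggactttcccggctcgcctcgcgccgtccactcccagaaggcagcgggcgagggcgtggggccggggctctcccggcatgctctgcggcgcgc
Cenpa (chr5:30666636-30666935, forward strand): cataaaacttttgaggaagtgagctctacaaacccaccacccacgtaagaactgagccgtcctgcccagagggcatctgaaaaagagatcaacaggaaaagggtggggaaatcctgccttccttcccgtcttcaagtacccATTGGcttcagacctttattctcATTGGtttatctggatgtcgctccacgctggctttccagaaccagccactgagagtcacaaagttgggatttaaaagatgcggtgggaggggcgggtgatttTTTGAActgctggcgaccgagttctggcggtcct
Kif4 (chrX:100625815-100626114, forward strand): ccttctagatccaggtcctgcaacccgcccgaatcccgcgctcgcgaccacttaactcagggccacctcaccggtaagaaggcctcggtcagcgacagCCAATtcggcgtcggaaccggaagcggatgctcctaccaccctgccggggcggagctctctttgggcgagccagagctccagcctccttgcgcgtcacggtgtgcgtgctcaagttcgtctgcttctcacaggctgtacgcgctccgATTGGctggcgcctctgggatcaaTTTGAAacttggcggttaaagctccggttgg
Ccnb2 (chr9:70421505-70421804, reverse strand): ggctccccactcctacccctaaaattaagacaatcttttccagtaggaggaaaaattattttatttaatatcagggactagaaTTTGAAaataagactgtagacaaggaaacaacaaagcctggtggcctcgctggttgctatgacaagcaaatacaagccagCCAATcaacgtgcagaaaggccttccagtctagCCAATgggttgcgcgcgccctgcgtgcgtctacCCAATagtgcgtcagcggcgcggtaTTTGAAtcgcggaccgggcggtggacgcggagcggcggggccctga
Cdc20 (chr4:118437294-118437593, reverse strand): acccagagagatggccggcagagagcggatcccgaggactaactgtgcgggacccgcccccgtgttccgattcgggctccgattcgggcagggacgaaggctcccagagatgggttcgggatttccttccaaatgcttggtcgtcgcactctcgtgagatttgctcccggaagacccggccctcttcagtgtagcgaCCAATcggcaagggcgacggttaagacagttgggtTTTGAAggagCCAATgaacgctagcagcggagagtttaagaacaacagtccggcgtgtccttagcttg
The Mad1l1 and Birc5 windows held no match to either motif. The Cenpa and Kif4 windows each held 2 CCAAT boxes and 1 TTTGAA, as did that of Cdc20, and the Ccnb2 window held 3 CCAAT boxes and 2 TTTGAA. The Mad1l1 window runs past the end of its first exon, and the Kif4 window is set on a start 328 bases from that of GENCODE.

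Of the 38 genes, 32 had a promoter window, and 22 of these (68.8%) held CCAAT on either strand, against 37.4% of all 32851 windows of the same length. TTTGAA was found in 20 of 32 (62.5%), against 17.9% of all windows, and 18 held both. A strict E2F motif, TTTGGCGC or TTTCCCGC on either strand, was found only in the Kif18a window, 1 of 32 (3.12%), against 1.56% of all windows. In 7 windows none of the 3 motifs was found, those of Mad1l1, Birc5, Mad2l1, Nuf2, Plk4, Pttg1 and Tacc3. Empty windows were thus not particular to the called genes. No match says only that these letters are absent from the window.

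Among the cyclins and their kinase, none was called in ERI-R against Control. Cdk1 had 83.4, 118 and 143 CPM in ERI-R, against 190.1, 158 and 126 CPM in Control (log2 fold change -0.46, edgeR adjusted p = 0.445). Ccna2, the cyclin of S phase and mitotic entry, drew the most counts of these genes over the 12 libraries together, though not in PAC-R or VIN-R, where Cdk1 had more, with 208, 266 and 129 CPM in ERI-R, 172.5, 147 and 149 CPM in PAC-R, 214, 129 and 167 CPM in VIN-R and 169.9, 195 and 139 CPM in Control. All groups overlapped. The B-type cyclins Ccnb1 (log2 fold change -0.23) and Ccnb2 (0.12) and the phosphatase Cdc25c (0.30), which activates CDK1, had fitted changes under 2-fold whose intervals included 0.

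In the checkpoint and APC/C group, the genes other than Mad1l1 were not called. Mad2l1, which encodes the MAD2 that MAD1 recruits, was the only one whose libraries did not overlap, with 73.2, 83.8 and 40.2 CPM in ERI-R, against 104, 93.3 and 89.3 CPM in Control (log2 fold change -0.54, edgeR adjusted p = 0.218). Bub1, a kinase that recruits other checkpoint proteins to kinetochores, had 96.2, 84.7 and 15.6 CPM in ERI-R, against 89.1, 99.4 and 105 CPM in Control, and only ERI-R 3 was far from the rest. Bub3, the partner of BUB1 and BUBR1, drew the most counts here over the 12 libraries together, though not in ERI-R, where Mad1l1 and Cdc20 had more, with 91.9, 121 and 117 CPM in ERI-R, 106, 95.2 and 151 CPM in PAC-R, 125, 91.2 and 148 CPM in VIN-R and 136, 118 and 114 CPM in Control. These ranges overlapped in every pair of groups. Bub1b, which encodes BUBR1 (log2 fold change -0.05), the kinase gene Ttk (-0.10) and Cdc20 (0.71, edgeR adjusted p = 0.481) were not called either.

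Mitotic kinases showed no called change. Plk1, the polo-like kinase of mitotic entry and spindle assembly, had 81.0, 68.9 and 99.7 CPM in ERI-R, 62.1, 48.6 and 127 CPM in PAC-R, 85.3, 46.9 and 125 CPM in VIN-R and 112, 77.4 and 47.8 CPM in Control. In each group the library without Lyz2 was the highest. Aurka, the centrosomal Aurora kinase, was the most even in ERI-R, at 67.8, 68.0 and 72.1 CPM, against 77.8, 64.0 and 64.0 CPM in Control (log2 fold change 0.01, 95% interval -0.64 to 0.66). Plk4, which drives centriole duplication, fitted at -0.28 and Nek2, a kinase of centrosome separation, at -0.46, neither called.

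Within the chromosomal passenger complex, Birc5 alone was called, and its partners were measured at log2 fold changes of -0.04 for the kinase Aurkb, 0.20 for the scaffold Incenp and 0.93 for Cdca8, which encodes borealin. Incenp drew the most counts of the complex over the 12 libraries together, though not in ERI-R, where Birc5 had more, with 116, 103 and 277 CPM in ERI-R, 133, 103 and 209 CPM in PAC-R, 132, 96.3 and 214 CPM in VIN-R and 179.9, 150.1 and 101 CPM in Control. Cdca8 had 56.6, 52.0 and 166 CPM in ERI-R, against 57.4, 53.6 and 33.1 CPM in Control, so that its fitted change in CPM rested largely on ERI-R 3. On the TPM scale its groups did not overlap, with 103, 81.5 and 125 TPM in ERI-R, against 67.3, 64.95 and 39.3 TPM in Control. In the libraries with Lyz2 alone its log2 fold change was 0.43.

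At the kinetochore, Cenpa was called and the others were not. Ndc80, which with Nuf2 forms the microtubule-binding rod of the kinetochore, had 54.3, 40.2 and 26.5 CPM in ERI-R, against 62.3, 76.7 and 74.6 CPM in Control, without overlap (log2 fold change -0.82, edgeR adjusted p = 0.104). It passed the threshold when ERI-R 1 was left out (-1.07, edgeR adjusted p = 0.0490). Nuf2 overlapped, with 73.1, 103 and 71.1 CPM in ERI-R, against 93.8, 86.4 and 64.3 CPM in Control. Cenpe, a kinetochore kinesin that moves chromosomes to the spindle equator, drew the most counts of the kinetochore genes over the 12 libraries together, though by group only in PAC-R, with 342, 283 and 183 CPM in ERI-R, 201, 274 and 149 CPM in PAC-R, 186, 239 and 177 CPM in VIN-R and 221, 204 and 245 CPM in Control. Cenpf, a large protein of the outer kinetochore, had a log2 fold change of -0.61 (edgeR adjusted p = 0.281).

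Of the 6 kinesins, Kif4 was called. Kif11, the motor that pushes the spindle poles apart, drew the most counts, with 268, 221 and 59.8 CPM in ERI-R, against 251, 236 and 252 CPM in Control (log2 fold change -0.43, edgeR adjusted p = 0.608). ERI-R 3 alone was far from the other values. Kif20a, of the midzone and cytokinesis, fitted at -0.46, Kif23, of the same stage, at -0.12, the microtubule depolymerase Kif2c at -0.30 and Kif18a, which damps chromosome movements, at -0.08. None of these passed the threshold.

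Tacc3, which helps stabilise the microtubule bundles at kinetochores, came closest to the threshold without passing it. Its libraries did not overlap, with 167, 171 and 347 CPM in ERI-R, against 111, 90.1 and 55.6 CPM in Control (log2 fold change 1.41, 95% interval 0.37 to 2.46, edgeR adjusted p = 0.0615). Some of its exons are overlapped by Tmem129 on the opposite strand, so its value is uncertain in the same way as that of Kif4. It was called by DESeq2 (1.47, adjusted p = 0.0180) and with the size factors of DESeq2 in edgeR (1.49, adjusted p = 0.0495). The spindle assembly factor Tpx2 (log2 fold change -0.35) and the midzone bundling protein gene Prc1 (-0.04) were not called, and Prc1 had 226, 213 and 127 CPM in ERI-R, 185, 183 and 147 CPM in PAC-R, 203, 166 and 169 CPM in VIN-R and 193, 204 and 184 CPM in Control.

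Espl1, which encodes separase, the protease that opens cohesin at anaphase, had 45.3, 27.5 and 26.9 CPM in ERI-R, 27.2, 31.6 and 53.9 CPM in PAC-R, 31.0, 26.4 and 58.5 CPM in VIN-R and 53.3, 34.1 and 24.7 CPM in Control. Pttg1, which encodes its inhibitor securin, drew the fewest counts of all 38 genes over the 12 libraries together, with 9.45, 9.61 and 21.6 CPM in ERI-R, against 7.59, 11.7 and 6.64 CPM in Control. Neither was called in ERI-R. Among the chromosome proteins, Top2a, the topoisomerase that untangles sister chromatids, had 756, 672 and 737 CPM in ERI-R, 608, 779.6 and 562 CPM in PAC-R, 642, 773 and 731 CPM in VIN-R and 863, 739 and 785 CPM in Control (log2 fold change -0.14 for ERI-R against Control). Mki67, the marker of cycling cells Ki-67, had 1384, 969.5 and 357 CPM in ERI-R, against 820.3, 617 and 558 CPM in Control (log2 fold change 0.44, edgeR adjusted p = 0.557). ERI-R 1 and ERI-R 2 lay above all Control libraries and ERI-R 3 below them, and without ERI-R 3 Mki67 was called (0.96, edgeR adjusted p = 0.0427).

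A missed threshold does not show that a gene was level. Of the 34 mitosis genes not called in ERI-R against Control, 13 had a 95% interval within a 2-fold change in either direction, and for the other 21 a change of that size lay within the interval. Intervals lay within a 2-fold change for 18 of 38 genes in PAC-R against Control and for 20 of 38 in VIN-R against Control.

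**Figure D3:**
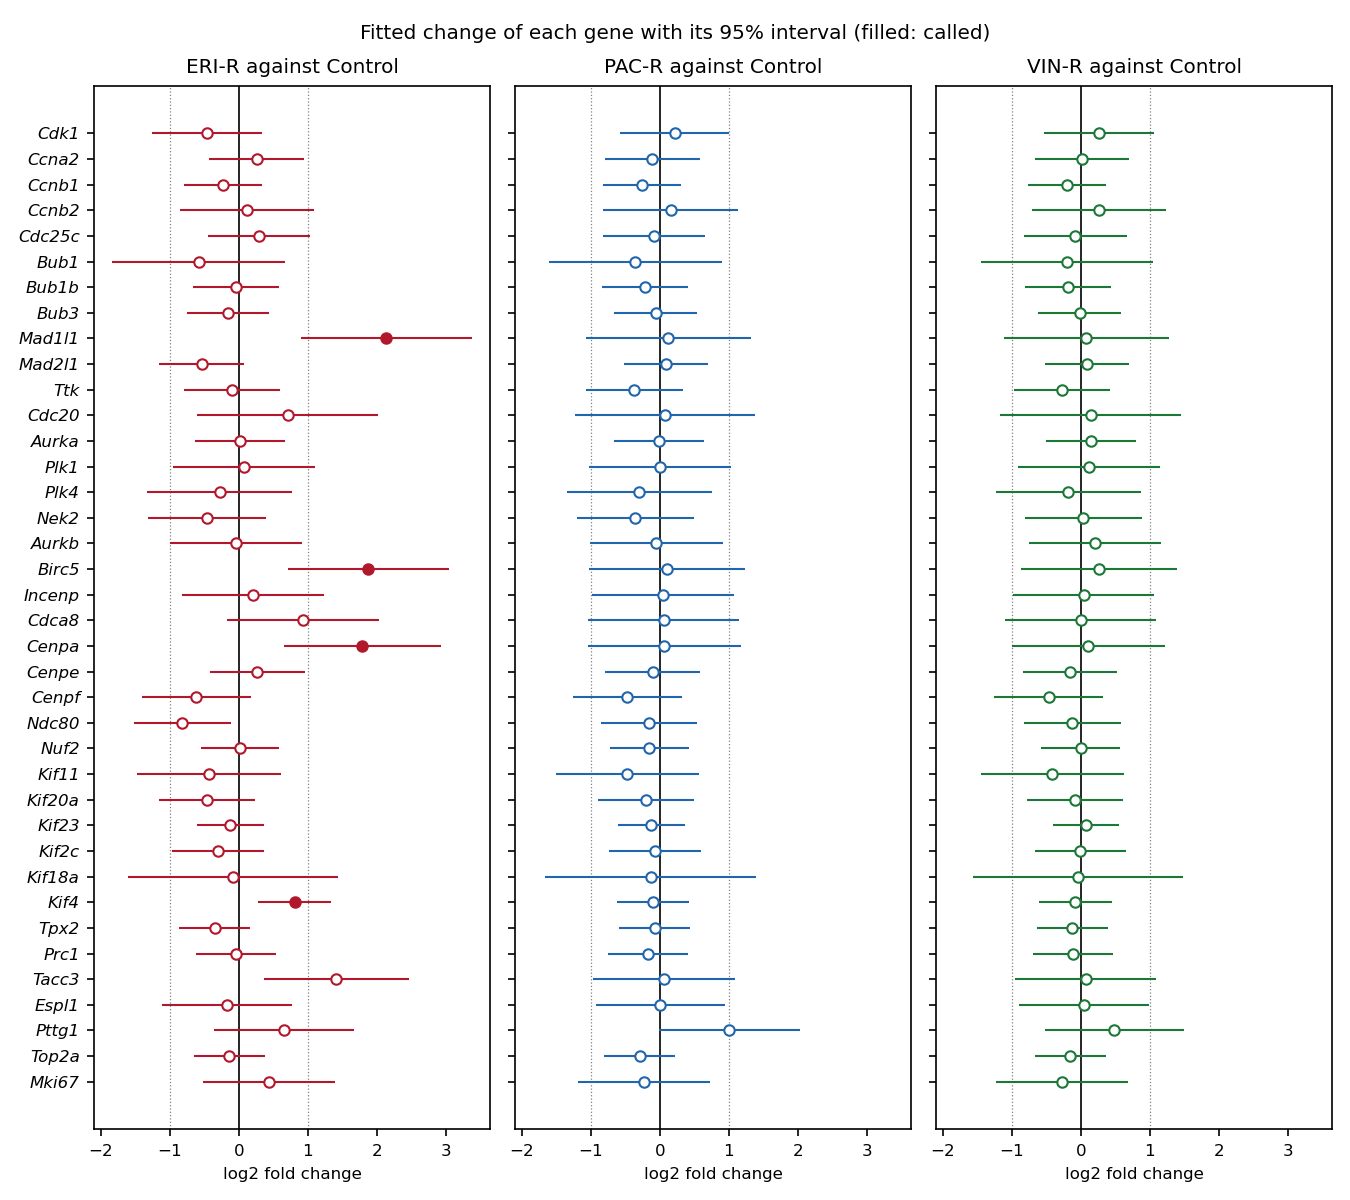
Fitted log2 fold change of each mitosis gene (points) with its 95% interval (bars) in ERI-R, PAC-R and VIN-R against the same 3 Control libraries; filled points passed an adjusted p under 0.05 and dotted lines mark a 2-fold change. Mad1l1, Birc5, Cenpa and Kif4 are filled in ERI-R, and no gene is filled in PAC-R or VIN-R.

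No mitosis gene was called in PAC-R against Control. The count was 0 of 38 in edgeR's quasi-likelihood test, where the background was 0% of 14226 genes. At an unadjusted p under 0.05 there were 0 of the 38 and 245 of all genes, and DESeq2 called 0 of the 38 and 25 genes in all (0.152%). The median log2 fold change was -0.09, beside 0.05 for all genes, and the fitted values ran from -0.47 for Cenpf to 1.01 for Pttg1. Libraries did not overlap for 3 of the 38 genes (7.89%), against 7.58% of all genes. Pttg1 was higher, with 26.6, 13.1 and 12.5 CPM in PAC-R, against 7.59, 11.7 and 6.64 CPM in Control. Ttk was lower, with 37.1, 40.2 and 30.9 CPM in PAC-R, against 49.3, 48.0 and 42.5 CPM in Control. Kif11 was lower too, with 186, 235 and 113 CPM in PAC-R, against 251, 236 and 252 CPM in Control. Its nearest libraries were close, PAC-R 2 at 234.9 CPM and Control 2 at 236.0 CPM. So were those of Pttg1, PAC-R 3 at 12.5 CPM and Control 2 at 11.7 CPM. All 3 differences fell short of the threshold.

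VIN-R against Control likewise had 0 of 38 called by edgeR, with a background of 0%. There were 0 of the 38 and 381 of all genes at an unadjusted p under 0.05, and DESeq2 called 0 of the 38 and 36 genes in all (0.218%). The median log2 fold change was -0.00, beside 0.04 for all genes, with fitted values from -0.46 for Cenpf to 0.49 for Pttg1. Libraries did not overlap for 3 of 38 (7.89%), all lower in VIN-R, against 8.55% of all genes. Cenpf had 157, 238 and 208 CPM in VIN-R, against 313, 239.9 and 280.4 CPM in Control. Kif11 had 191, 211 and 153 CPM in VIN-R, against 251, 236 and 252 CPM in Control, and Plk4 had 81.7, 80.4 and 64.4 CPM in VIN-R, against 82.2, 87.1 and 87.9 CPM in Control. For Cenpf and for Plk4 the highest VIN-R library lay within 2 CPM of the lowest Control library.

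The difference between the derivatives was tested in its own right. In ERI-R against PAC-R, 4 of 38 mitosis genes rose and 0 fell, beside 18.7% of all genes called, 9.19% as higher and 9.55% as lower. In ERI-R against VIN-R, 3 of 38 rose and 0 fell, beside 19.3% of all genes, 9.55% as higher and 9.74% as lower. These comparisons share the ERI-R libraries with each other and with ERI-R against Control, so their values are set side by side and not counted as separate evidence.

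Mad1l1 had 25.9, 19.7 and 58.6 CPM in PAC-R and 31.7, 21.1 and 48.3 CPM in VIN-R, and its log2 fold change was 2.01 in ERI-R against PAC-R (edgeR adjusted p = 0.0282) and 2.06 in ERI-R against VIN-R (adjusted p = 0.0250). Cenpa had 76.1, 75.1 and 128 CPM in PAC-R and 116, 54.6 and 117 CPM in VIN-R, with log2 fold changes of 1.72 (edgeR adjusted p = 0.0392) and 1.68 (adjusted p = 0.0426) for ERI-R against PAC-R and against VIN-R. Kif4 had 57.1, 64.4 and 62.0 CPM in PAC-R and 57.2, 56.6 and 71.9 CPM in VIN-R, with 0.91 (edgeR adjusted p = 0.0221) and 0.89 (adjusted p = 0.0237). For each of these genes the ERI-R libraries lay above all libraries of the other derivative. Birc5 had 70.3, 48.1 and 108 CPM in PAC-R and 104, 40.3 and 109 CPM in VIN-R, and it was called against PAC-R (1.78, edgeR adjusted p = 0.0373) but not against VIN-R (1.61, adjusted p = 0.0545), although its libraries overlapped in neither.

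Leaving out ERI-R 3 ended the calls of Mad1l1 (1.47 against PAC-R, 1.51 against VIN-R), Cenpa (1.07 and 1.02) and Birc5 (1.34 against PAC-R). Without ERI-R 3, Mki67 was called as higher (1.20 against PAC-R, 1.22 against VIN-R), and so was Ttk against PAC-R (0.71). That refit called 20.0% of all genes against PAC-R and 19.9% against VIN-R. Calls were also gained by Birc5 against VIN-R without ERI-R 1 (1.87) and by Tacc3 against PAC-R without PAC-R 3 (1.75). Leaving out ERI-R 1 or ERI-R 2 ended the calls of Kif4 (0.83 and 0.86 against PAC-R, 0.81 and 0.84 against VIN-R). Against PAC-R, calls were also lost without PAC-R 1 for Mad1l1 (1.82), Birc5 (1.71), Cenpa (1.58) and Kif4 (0.85), without PAC-R 2 for Mad1l1 (1.71), Birc5 (1.52), Cenpa (1.57) and Kif4 (0.94), and without PAC-R 3 for Kif4 (0.91). Against VIN-R, they were lost without VIN-R 1 for Mad1l1 (2.00), Cenpa (1.82) and Kif4 (0.83), without VIN-R 2 for Mad1l1 (1.79), Cenpa (1.38) and Kif4 (0.82), and without VIN-R 3 for Cenpa (1.83). Without 1 PAC-R library 12.6% to 15.5% of all genes were called against PAC-R. Without 1 VIN-R library 13.8% to 15.4% were called against VIN-R. Without a filter on low counts the Kif4 call was lost against PAC-R (0.90, edgeR adjusted p = 0.134) and VIN-R (0.85, adjusted p = 0.159), and that of Cenpa against VIN-R (1.57, adjusted p = 0.0601).

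Among the 8 libraries with Lyz2 the mitosis genes called as higher in ERI-R against PAC-R, beside 22.8% of all genes, were Mad1l1 (log2 fold change 2.06), Cenpa (1.35), Kif4 (1.17), Tacc3 (1.44) and Mki67 (1.09). In ERI-R against VIN-R, beside 24.0% of all genes, they were Mad1l1 (1.83), Kif4 (1.27), Tacc3 (1.31) and Mki67 (1.41). With a term for Lyz2, which called 29.4% of all genes against PAC-R and 29.7% against VIN-R, Mad1l1, Birc5, Cenpa, Kif4 and Tacc3 were higher in both, and Ndc80 was lower in both (-0.69 and -0.72). DESeq2 called the same 5 as higher in both, beside 20.7% and 20.0% of all genes, and in ERI-R against Control, beside 22.7%.

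Libraries did not overlap for 8 of 38 mitosis genes in ERI-R against PAC-R (21.1%), beside 29.3% of all genes, and for 6 of 38 in ERI-R against VIN-R (15.8%), beside 30.4%. Besides the called genes these were Tacc3, higher in ERI-R in both, Mad2l1, lower in ERI-R in both, Cdk1 and Tpx2, lower in ERI-R against PAC-R, and Birc5, higher in ERI-R against VIN-R. Cdk1 had 83.4, 118 and 143 CPM in ERI-R, against 149, 146 and 255 CPM in PAC-R (log2 fold change -0.67, edgeR adjusted p = 0.259).

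Between PAC-R and VIN-R, 0 of 38 mitosis genes were called in edgeR, with a background of 0%, and 0 of the 38 and 156 of all genes had an unadjusted p under 0.05, while DESeq2 called 0 of the 38 and 3 genes in all (0.0112%). The libraries overlapped for all 38 genes, beside 3.20% of all genes whose libraries did not. The fitted log2 fold changes ran from -0.39 for Nek2 to 0.52 for Pttg1, and 22 of 38 intervals lay within a 2-fold change.

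The mitosis genes also differed between the libraries with and without Lyz2. This is a description of libraries that were grouped by their own RNA, without a test. Over all groups, 5 of 38 genes did not overlap between the 8 libraries with Lyz2 and the 4 without (13.2%), against 21.4% of all genes. Kif18a was higher in the libraries with Lyz2, at 35.4 to 46.9 CPM, against 6.94 to 22.8 CPM without. Cdc20 (35.6 to 87.4 CPM with Lyz2, 98.9 to 195 CPM without), Plk1 (46.9 to 85.3 CPM with, 99.7 to 127 CPM without), Incenp (96.3 to 150.1 CPM with, 179.9 to 277 CPM without) and Cdca8 (29.6 to 56.6 CPM with, 57.4 to 166 CPM without) were lower.

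Within the groups, 14 of 38 mitosis genes (36.8%) were lower with Lyz2 in all 4 groups, beside 27.1% of all genes, and 6 of 38 (15.8%) were higher in all 4, beside 32.8%. The 14 included every gene of the chromosomal passenger complex (Aurkb, Birc5, Incenp, Cdca8), together with Cdk1, Ccnb2, Cdc25c, Bub3, Mad1l1, Cdc20, Aurka, Plk1, Cenpa and Tacc3. The 6 were Bub1, Plk4, Cenpe, Ndc80, Kif18a and Prc1. The libraries without Lyz2 also had fewer counts on mitochondrially encoded genes, at least 3.22% of all counts with Lyz2 and at most 2.45% without.

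These differences followed transcript length most closely in ERI-R. Across the 38 genes, Spearman's rho between the transcript length and the log2 ratio of the libraries with over those without Lyz2 was 0.71 in ERI-R, 0.56 in PAC-R, 0.30 in VIN-R and 0.19 in Control, beside 0.45, 0.30, 0.09 and 0.05 over all 14226 genes. Genes are not independent replicates, and in each group all points rest on the same single library without Lyz2. In ERI-R the longer genes, those above the median of 2344 bases, had a median log2 ratio of 0.87 and the shorter genes one of -0.50. Mad1l1, Birc5 and Cenpa, highest in ERI-R 3, were among the genes lower with Lyz2, while Bub1, with 96.2 and 84.7 CPM in ERI-R 1 and 2 against 15.6 CPM in ERI-R 3, and Kif18a, with 46.9 and 42.3 CPM against 6.94 CPM, showed the opposite. The part of length in the calls was not tested.

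**Figure D4:**
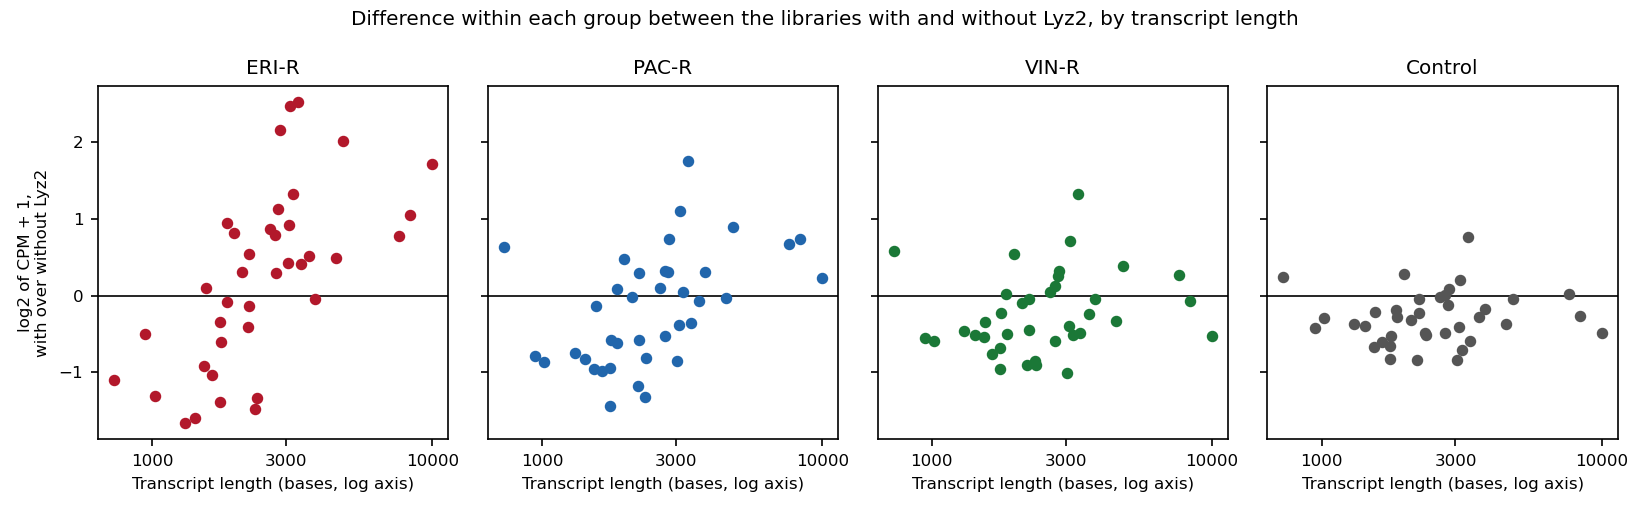
Log2 ratio of CPM plus 1 in the libraries with Lyz2 over the library without it (vertical axis) against transcript length (horizontal axis, log scale) for the 38 mitosis genes, in each group. Long transcripts lie high and short ones low in ERI-R, where Spearman's rho is 0.71, and the spread is narrowest in Control, where it is 0.19.

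Other genes of the division cycle were counted in the same fit. Of 56 other mitotic genes, 1 rose and 1 fell in ERI-R against Control (3.57%, beside 19.2% of all genes), with a median log2 fold change of 0.02. Psrc1, which encodes a microtubule-binding protein of the spindle, had 120.2, 196 and 386 CPM in ERI-R, against 24.3, 22.9 and 28.3 CPM in Control (log2 fold change 3.22, edgeR adjusted p = 0.000817). Zwint, a kinetochore protein that binds the NDC80 network and ZW10, had 71.8, 80.6 and 79.0 CPM in ERI-R, against 193, 205 and 223 CPM in Control (log2 fold change -1.43, edgeR adjusted p = 0.00112). Neither group pair overlapped, and both genes were called in all 15 alternative fits of that comparison.

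Of 20 regulators of the mitotic programme, such as Foxm1, Mybl2 and E2f1, 0 rose and 0 fell by edgeR or by DESeq2, with 1 at an unadjusted p under 0.05. Of 35 DNA replication genes 3 rose and 0 fell (8.57%, beside 19.2% of all genes), with a median log2 fold change of 0.33. Tyms, the thymidylate synthase, had 131, 189.7 and 465 CPM in ERI-R, against 65.6, 57.1 and 31.9 CPM in Control (log2 fold change 2.34, edgeR adjusted p = 0.0167), a call that was lost without Control 2 or Control 3 (edgeR adjusted p up to 0.0757). Rfc3, a subunit of the clamp loader, had 78.6, 103 and 112 CPM in ERI-R, against 29.2, 28.1 and 15.9 CPM in Control (log2 fold change 2.01, edgeR adjusted p = 0.00327).

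Of 14 tested G1 cyclins and CDK inhibitors (of 15 listed), 2 rose and 1 fell in ERI-R against Control (21.4%, beside 19.2% of all genes). Ccnd2, cyclin D2, had 55.9, 54.6 and 34.4 CPM in ERI-R, against 181, 231 and 241 CPM in Control (log2 fold change -2.17, edgeR adjusted p = 0.00158). The CDK inhibitor gene Cdkn2a had 10.4, 10.5 and 45.7 CPM in ERI-R, against 0, 0.335 and 0 CPM in Control, and Cdkn2b had 11.7, 7.25 and 20.0 CPM in ERI-R, against 0, 0.587 and 0.350 CPM in Control. The Cdkn2b call was lost without ERI-R 1, ERI-R 3, Control 1, Control 2 or Control 3 (edgeR adjusted p up to 0.120). In ERI-R against Control, DESeq2 called 22.7% of all genes. It called 5 higher and 1 lower of the 56 other mitotic genes (10.7%), 6 higher and 0 lower of the 35 DNA replication genes (17.1%), and 4 higher and 1 lower of the 15 G1 cyclins and CDK inhibitors (33.3%). In PAC-R and in VIN-R against Control, 0 genes of these 4 lists were called by edgeR or DESeq2, and 0 had an unadjusted p under 0.05.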

How the data were processed

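RNA was sequenced from 12 PB3 libraries. Per the labels' protocols, a Kapa mRNA HyperPrep kit and 200 ng of input were used, with paired reads of 76 bases. The submitters' processing notes name the tools RSEM 1.3.2, STAR 2.7.2b, cutadapt 2.4 and bcl2fastq 2.20.0.422, and the build GRCm38. No source used here names the annotation or the strand setting. The authors' files are RSEM tables by gene: per the file headers, their expected count is an estimated, unnormalised number of fragments. Per the file headers the TPM column is the authors' abundance normalised for transcript length, and the length column was averaged over the 12 libraries.

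Rounding the expected counts altered 15.3% of those above 0. After filterByExpr and TMM scaling, CPM were computed, and edgeR 4.0.16 (R 4.3.3, limma 3.58.1) was used for 1 robust quasi-likelihood fit with group means over all libraries. It had 8 residual degrees of freedom, and its common biological coefficient of variation was 0.591. In all, 6 comparisons were made, p-values were adjusted by Benjamini-Hochberg over all 14226 genes of a comparison, and an adjusted p under 0.05 was called. Intervals of 95% come from the moderated F statistic. The fit was tested on counts simulated with less spread than these data, and with larger changes than those of the called mitosis genes. That test therefore does not show how well the fit performs here. Nothing in the labels makes the replicates of a group separate cultures. The p-values therefore reflect only how these libraries vary, and floors of 3 counts cover counting error only.

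The 38 genes, the other lists and the tests were chosen with earlier results of these data known. All genes of the list are named, with each library's value for called genes and for the most abundant gene of each role, and at most 2 rises and 2 falls of each other list. Genes named because their libraries did not overlap, or because a call was near, were picked after their values were seen. Exons of 12 of the 38 genes are overlapped by a gene on the opposite strand in GENCODE M21, among them Kif4, Tacc3 and Cdc20. All 12 are uncertain to that extent, though the gene overlapping Mad1l1 had a mean of only 0.0833 expected counts per library, beside 699. Replicate numbers were checked for pairing by the correlation of the deviations of same-numbered libraries from their group means. For ERI-R with PAC-R it was 0.617, 0.642 and 0.785. Since ERI-R 3 and PAC-R 3 were both libraries without Lyz2, these values cannot show whether the numbers are pairs. A fit with the replicate number as a block left 4 genes higher and 0 lower in that comparison. Alternatives were DESeq2 1.42.0, other scalings and filters, the block, a Lyz2 term, the libraries with Lyz2 alone, the 2 groups compared alone, and leaving out each library.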

Additional observations from a re-analysis of the deposited data

Results flagged for a closer look

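The level of 4 mitosis genes differed between derivatives by a direct test, that is by the contrast of ERI-R with another derivative in the fit over all genes. In ERI-R against PAC-R the log2 fold change was 2.01 for Mad1l1, 1.78 for Birc5, 1.72 for Cenpa and 0.91 for Kif4, each higher in 3 of 3 ERI-R libraries than in any PAC-R library. Against VIN-R it was 2.06 for Mad1l1, 1.68 for Cenpa and 0.89 for Kif4, again without overlap of libraries. Of the 38 mitosis genes 10.5% were called as higher against PAC-R, beside 9.19% of all genes, and 7.89% against VIN-R, beside 9.55%. Libraries did not overlap for 21.1% of the 38 genes against PAC-R, beside 29.3% of all genes, and 15.8% against VIN-R, beside 30.4%. For Mad1l1, Birc5 and Cenpa the highest ERI-R library was ERI-R 3, which had no Lyz2 and the highest share of ribosomal protein counts (15.3%), and for Kif4 it was the lowest of the ERI-R libraries. The part of these differences between libraries in the results was not tested.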

How the results depend on the processing

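Of the 12 reported counts of called mitosis genes, 3 were above 0. Of 45 recomputations of these 3, 13 moved by more than 1.5 times. The 9 counts of 0 were recomputed 135 times, of which 4 gave a gene, which says little of stability. In no alternative did a called gene change its direction. Without a filter and with total counts alone, ERI-R against Control lost Kif4. In ERI-R against Control (4 higher, 0 lower as reported) the fit of the 2 groups alone called 1 gene as higher, beside 12.8% of all genes called. Leaving out single libraries gave 0 to 3 higher and 0 to 1 lower, beside 12.6% to 19.7% of all genes. In ERI-R against PAC-R (4 higher, 0 lower) the fit of the 2 groups alone called 0, beside 9.25% of all genes. Leaving out single libraries there gave 0 to 4 higher, beside 12.6% to 20.0% of all genes. In ERI-R against VIN-R (3 higher, 0 lower) the counts were 1 without a filter, 5 with the Lyz2 term, 5 with DESeq2, 0 with the 2 groups alone and 0 to 3 when single libraries were left out. The Lyz2 term called 1 gene, Ndc80, as lower in each of these 3 comparisons. The fits of 2 groups and those without a library have fewer samples, and the cause of the other shifts was not tested. With total counts alone the median log2 fold change of all genes was 0.08 in ERI-R against PAC-R and 0.09 in ERI-R against VIN-R, beside -0.05 and -0.03 as reported.

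With the replicate number as a block, 3 mitosis genes were higher in ERI-R against Control, 4 in ERI-R against PAC-R and 3 in ERI-R against VIN-R. In that order, 18.7%, 18.3% and 18.6% of all genes were called. The call lost was that of Kif4 in ERI-R against Control (0.81, edgeR adjusted p = 0.0648). There the correlations of same-numbered libraries were -0.57, 0.36 and -0.59. The libraries without Lyz2 were Control 1 and ERI-R 3, so these correlations cannot show whether the numbers pair the libraries. Over all genes, the 2 groups alone called 1744 in ERI-R against Control, 1254 against PAC-R and 1493 against VIN-R, and the Lyz2 term 4445, 4176 and 4227, beside 2732, 2667 and 2744 as reported. In PAC-R and VIN-R against Control the Lyz2 term called 3 genes each and DESeq2 25 and 36, and DESeq2 called 3 in PAC-R against VIN-R, beside 0 as reported.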
